A study of Homo sapiens with 16 samples.

Results

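The subject here is the interaction of 2 drugs in cells of the MDA-MB-231 line, which came from a triple-negative breast tumour and grows with a mesenchymal shape: how far the transcript level of each gene under the combination of afatinib and paclitaxel departed from what both single-drug changes predict when they are added on the log2 scale. All 16 libraries entered, in a design of afatinib present or absent by paclitaxel present or absent, and 17991 of 37864 genes passed the filter on low counts and were tested. The groups were cells given the combination, afatinib alone, paclitaxel alone, or DMSO, the solvent that served as control, with 4 replicates each. Every library came from the same line in the same serum-containing medium, and the sources used here give neither dose nor duration of treatment. Whether replicates were separate cultures is not stated either, so the tests measure a spread between libraries that may be technical.

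Afatinib binds the kinases of the EGFR family irreversibly and blocks the growth signals they pass to the ERK and PI3K pathways. Paclitaxel binds β-tubulin, stabilises microtubules and disturbs the mitotic spindle, so that treated cells are delayed in mitosis. A drug pair whose changes simply add on the log2 scale has an interaction of 0, which means that the fold changes multiply. A positive interaction says that the combination stood above the product of both folds, and a negative one that it stood below it. A gene can therefore lie below the sum because it fell by more than both drugs predict, or because each drug raised it and the pair did not.

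The libraries held 28.4M to 48.1M counts (median 42.7M), the fewest in paclitaxel replicate 4. In each group the labelled RNA concentration was higher for replicates 1 and 2 than for the others, and this split into sets entered the fit as a covariate. The log2 RNA concentration had an interaction of its own, 0.92 in replicates 1 and 2 and −0.06 in replicates 3 and 4, so values within each set stand beside the main results. Fits with concentration as a covariate are given with the calls. Mitochondrially encoded genes took 2.11 to 3.22% of the counts in replicates 1 and 2 and 3.81 to 9.21% in replicates 3 and 4. Markers of the line as mesenchymal and triple-negative, EGFR among them, summed to 2774 to 5058 CPM in combination libraries, here relative to the plain library total. They summed to 2893 to 4381 CPM in afatinib, 3003 to 4608 CPM in paclitaxel and 3172 to 5220 CPM in DMSO libraries, although SPARC had only 8 to 30 counts per library. All other CPM values are relative to the TMM-scaled library size. Luminal and epithelial markers summed to 22.9 to 29.2 CPM and blood markers to 0.0881 to 0.286 CPM over all libraries, on the same plain scale. Fibroblast markers summed to 2.04 to 7.71 CPM and endothelial markers to 2.86 to 8.65 CPM on that scale. Levels are averages over all cells of a culture, so more cells in a state and more transcript per cell cannot be told apart.

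The combination departed from the sum at 159 of the 17991 genes (0.884%) at an adjusted p under 0.05 (edgeR quasi-likelihood test). Of these, 70 lay above the sum (0.389% of the genes tested) and 89 below it (0.495%). Without adjustment, 2256 genes had p under 0.05, 1135 above and 1121 below. The departures above the sum were small and lay in genes with many counts, with a median log2 interaction of 0.41 (0.33 to 1.95) and a median average level of 6.63 log2 CPM. Those below were larger and lay in genes with fewer counts, with a median of −0.72 (−0.34 to −2.36) and an average level of 3.22 log2 CPM. Levels are not scaled to gene length. Over all tested genes the quartiles were −0.16, 0.01 and 0.12. An interaction is built from 4 group means, and its median SE of 0.13 was larger than the 0.09 of either single-drug change.

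**Figure D1:**
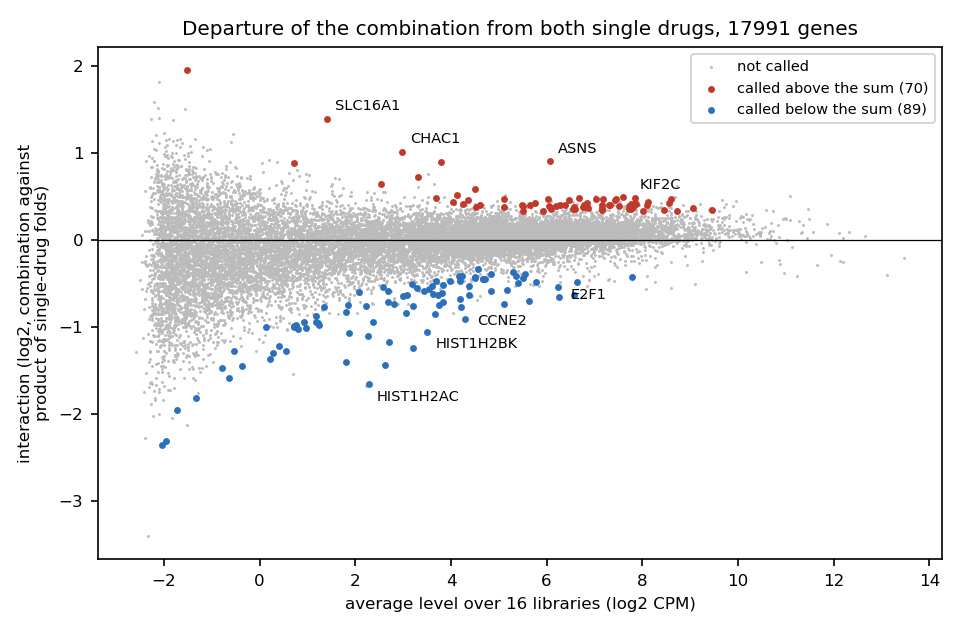
Log2 interaction (y axis) against the average level in log2 CPM (x axis) for the 17991 genes tested, each point a gene, with the 70 genes called above the sum in red and the 89 called below it in blue. Called genes above the sum cluster at high levels with small departures (median 0.41), and those below spread over lower levels with larger ones (median −0.72).

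The 4 group means sort the calls by how the departure arose. Of the 70 genes above the sum, the combination was the highest of the 4 groups in 55 and DMSO in 15. In 22 of the 70, both single-drug estimates were above DMSO, and in 26 both were below it. Of the 89 genes below the sum, the combination was the lowest group in 56, DMSO in 29 and afatinib in 4. In 52 of these 89, both single-drug estimates were above DMSO, and in 12 both were below it. The genes above the sum were all protein-coding, and 74 of those below were. Another 5 of those below were antisense transcripts, and since the strand setting of the counting is not stated, their reads cannot be told apart from those of the genes they overlap.

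**Figure D2:**
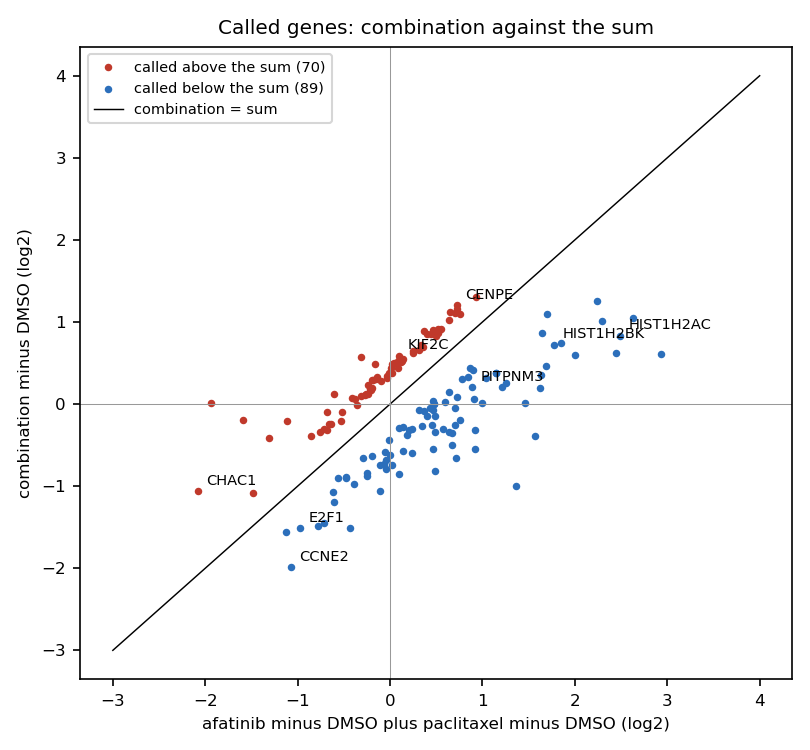
Log2 change in the combination against DMSO (y axis) over the sum of both single-drug log2 changes against DMSO (x axis) for the 159 called genes, with the line on which the combination equals the sum. The 70 red points lie above the line and the 89 blue points below it, and both kinds occur on either side of 0.

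All 159 calls had the same sign within replicates 1 and 2 as within replicates 3 and 4. A test of the difference of the interaction between the sets called 0 of 17991 genes (0%) in edgeR and 0 in limma-voom, with 402 genes at an unadjusted p under 0.05, 2 of them among the 159. Each interaction compared there rested on replicates 1 and 2 or on replicates 3 and 4 alone. The lack of calls therefore does not show that the sets agree. The calls were sensitive to single libraries. Without paclitaxel replicate 4, 34 genes were called, and without paclitaxel replicate 2, 278 were. A core of 33 genes, 13 above and 20 below the sum, was called whichever of the 16 libraries was left out. The genes given in full below are mostly of this core. With the replicate number in place of the set as a replicate block, 501 genes were called, the 159 among them. With groups alone and no set term, 0 genes were called in edgeR, although 643 had an unadjusted p under 0.05, 116 of the 159 among them. With log2 RNA concentration added to the set, 127 genes were called, 110 of the 159 among them, and with concentration in place of the set, 26 genes, all among the 159.

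**Figure D3:**
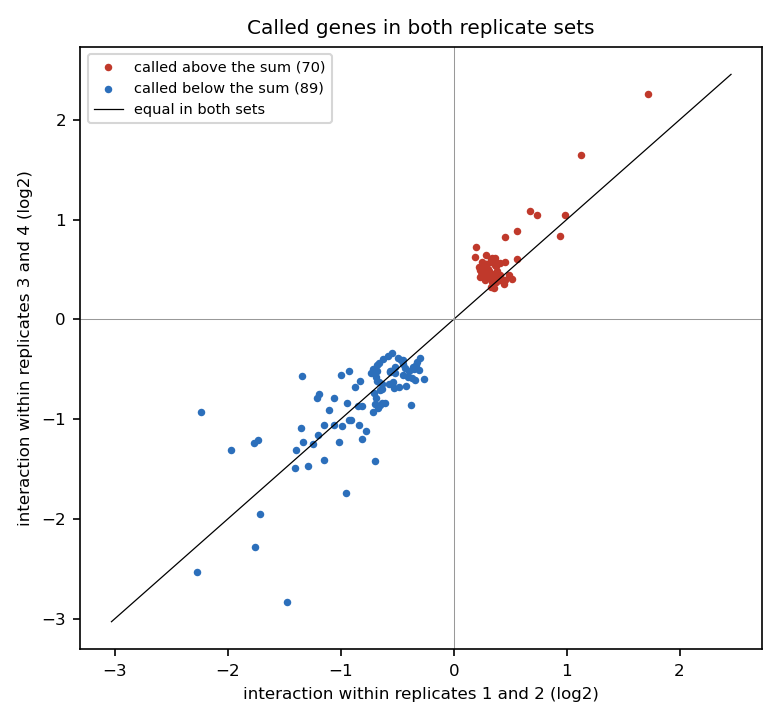
Log2 interaction within replicates 3 and 4 (y axis) against that within replicates 1 and 2 (x axis) for the 159 called genes, with the line of equal values. Every red point (70 genes, above the sum) is positive in both sets and every blue point (89 genes, below it) is negative in both. The calls rest on both sets together, so this is a description.

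Mitotic genes held the most calls of the 40 gene lists, all above the sum. Of 35 tested members of the mitosis list, which holds kinases, cyclins, kinesins and kinetochore proteins, 16 were called above the sum and 0 below, against 0.389% and 0.495% of all genes. All 35 estimates were positive, and 34 had an unadjusted p under 0.05. Of all 17991 genes tested, 9440 had a positive estimate, 1135 of them at that p. The list's median interaction was 0.36 (0.26 within replicates 1 and 2, 0.44 within replicates 3 and 4), against 0.01 over all genes tested. Its median log2 difference from DMSO was 0.62 in the combination, 0.06 with afatinib and 0.19 with paclitaxel. The combination was the highest group in all 16 called members. Without paclitaxel replicate 4 the list held 3 calls, and without paclitaxel replicate 2 it held 26. With the replicate block it held 25. Over all genes, in both directions together, these fits called 34, 278 and 501, against 159 in the main fit. These list counts therefore cannot be set against the 0.389% of the main fit.

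KIF2C (ENSG00000142945, chromosome 1, 44739818 to 44767767) encodes a kinesin that depolymerises microtubule ends at kinetochores. KIF2C had 220.4, 252, 270.3 and 274 CPM in the combination. It had 168, 168, 181 and 185 CPM with afatinib, 163, 171, 183 and 176 CPM with paclitaxel and 161, 158, 171 and 186 CPM in DMSO. Every combination library lay above every library of the other groups, which overlapped one another. The product of the single-drug folds came to 180.3 CPM, and the combination stood at 1.41 times that, an interaction of 0.49 ± 0.07 (log2 ± SE, adjusted p = 0.00168). It was 0.41 within replicates 1 and 2 and 0.57 within replicates 3 and 4.

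CDC25B (ENSG00000101224, chromosome 20, 3786772 to 3806121), a phosphatase that activates cyclin-dependent kinase at entry into mitosis, had the next strongest call of the list. CDC25B had 199, 215, 216 and 205 CPM in the combination. It had 167, 175, 160.5 and 168 CPM with afatinib, 149.7, 148, 150.1 and 153 CPM with paclitaxel and 168, 185, 159.9 and 154 CPM in DMSO. The combination again lay above all other libraries, whereas the paclitaxel libraries lay below every DMSO library. Its interaction was 0.47 ± 0.08 (adjusted p = 0.003).

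PLK1 (ENSG00000166851, chromosome 16, 23677656 to 23690367), the polo-like kinase that drives centrosome maturation and chromosome segregation, followed a different order. PLK1 had 371, 402, 389.9 and 361 CPM in the combination. It had 209.5, 214, 189 and 202 CPM with afatinib, 309, 317, 296 and 269 CPM with paclitaxel and 223, 228, 196 and 199 CPM in DMSO. Paclitaxel libraries lay above DMSO and afatinib libraries without overlap, and the combination lay above the paclitaxel libraries. The log2 differences from DMSO were 0.85 in the combination, −0.05 with afatinib and 0.50 with paclitaxel, and the interaction was 0.41 ± 0.08 (adjusted p = 0.00787). So KIF2C and CDC25B stood near or under DMSO with paclitaxel alone, while PLK1 stood well above it, and the interaction was of similar size in each.

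The other 13 called members ranged in interaction from 0.33 (CDC20, activator of the anaphase-promoting complex) to 0.48 (CENPE, a kinetochore kinesin). CENPE averaged 360.2 ± 92.3 CPM in the combination, 169 ± 37.02 with afatinib, 232 ± 42.3 with paclitaxel and 155 ± 32.2 in DMSO (SD over both sets, n = 4). CCNB1, the mitotic cyclin, averaged 517 ± 24.5 CPM in the combination, 252 ± 8.89 with afatinib, 389 ± 31.4 with paclitaxel and 241 ± 10.2 in DMSO. For CCNB1 the interaction was 0.35 ± 0.08 (adjusted p = 0.0442), and for CENPE 0.48 ± 0.11 (adjusted p = 0.0313). Among the kinases were AURKA (0.43 ± 0.10), NEK2 (0.46 ± 0.10) and TTK (0.36 ± 0.08), among the kinesins KIF11 (0.39 ± 0.08) and KIF4A (0.38 ± 0.08), and NDC80 (0.36 ± 0.08), a kinetochore protein, PRC1 (0.36 ± 0.08) and ANLN (0.37 ± 0.08), which act in cytokinesis, HMMR (0.38 ± 0.09) and CDC25C (0.46 ± 0.11) complete the list. Each of these 13 lost its call without at least 1 library, at an adjusted p of up to 0.149, and paclitaxel replicate 4 was one of those libraries for all 13. Outside the list, the spindle protein CKAP2 averaged 592 ± 34.1 CPM in the combination, 294 ± 17.4 with afatinib, 393 ± 51.6 with paclitaxel and 271 ± 7.25 in DMSO, with an interaction of 0.47 ± 0.10 (adjusted p = 0.028), a call lost without combination replicate 3, afatinib replicate 1 or 3, or paclitaxel replicate 1 or 4 (adjusted p up to 0.0803).

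Further mitotic genes outside the list were picked after their values were seen. TACC3, a spindle protein that stabilises microtubules, averaged 396 ± 22.9 CPM in the combination, 223 ± 6.56 with afatinib, 279 ± 17.02 with paclitaxel and 212 ± 3.82 in DMSO and had an interaction of 0.44 ± 0.08 (adjusted p = 0.00614). CDCA8, a subunit of the chromosomal passenger complex, averaged 243 ± 16.5 CPM in the combination, 137 ± 12.8 with afatinib, 174 ± 18.2 with paclitaxel and 134 ± 8.29 in DMSO, with 0.46 ± 0.08 (adjusted p = 0.00376). Both calls held whichever library was left out.

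The RefSeq promoter window of PLK1 (250 bases before to 50 after the annotated start, chr16:23678639-23678938, plus strand, GRCh38.p14) is shown because many mitotic promoters hold the CHR element TTTGAA and the CCAAT box, sequences known from cell cycle regulation. Capitals mark matches on either strand.
PLK1: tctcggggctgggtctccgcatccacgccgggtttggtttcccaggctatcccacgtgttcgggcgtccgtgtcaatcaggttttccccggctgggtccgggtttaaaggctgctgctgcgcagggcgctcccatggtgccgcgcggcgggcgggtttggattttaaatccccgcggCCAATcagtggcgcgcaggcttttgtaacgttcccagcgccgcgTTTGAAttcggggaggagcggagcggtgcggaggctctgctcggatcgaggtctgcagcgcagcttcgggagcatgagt
TTTGAA lies 29 bases before the start and CCAAT 73 bases before it. Of the 35 tested mitosis genes, 30 had a RefSeq window. At least 1 window held TTTGAA in 21 of them (70.0%) and CCAAT in 24 (80.0%). Among the 11901 tested genes with a window the shares were 14.1% and 42.5%, and among all 35116 RefSeq windows they were 15.2% and 34.6%. The 16 called members had a window in 14 cases, with TTTGAA in 9 (64.3%) and CCAAT in 10 (71.4%), so within the list the called members did not hold these letters more often. The windows of 60 of the 70 genes above the sum held TTTGAA in 27 cases. Among genes below the sum it was 12 of 66 (18.2%).

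**Figure D4:**
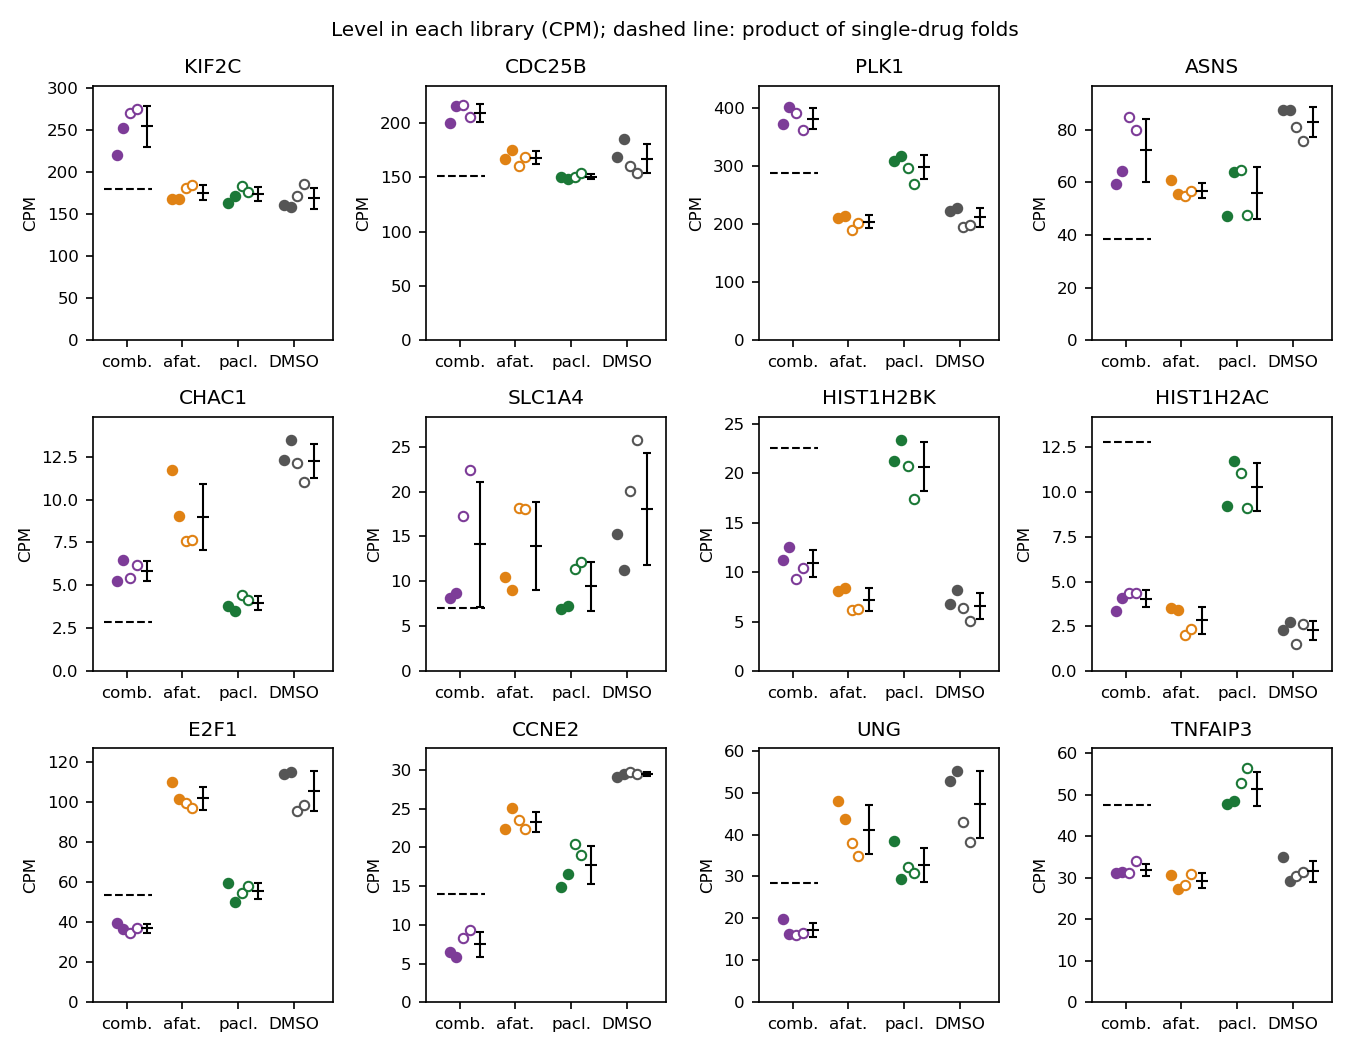
Level in CPM (y axis, from 0) in each library of 12 genes, with the groups combination, afatinib, paclitaxel and DMSO along the x axis. Filled points are replicates 1 and 2, open points replicates 3 and 4, the black mark with bars is the mean ± SD (n = 4), and the dashed line is the level given by the product of the single-drug folds. Combination points lie above the dashed line for KIF2C, CDC25B, PLK1, ASNS, CHAC1 and SLC1A4 and below it for HIST1H2BK, HIST1H2AC, E2F1, CCNE2, UNG and TNFAIP3.

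A second set of genes above the sum serves amino acid supply and charging. When amino acids run short or the endoplasmic reticulum is stressed, the transcription factor ATF4 raises genes for amino acid synthesis, import and tRNA charging. Of 59 tested genes on the lists of ATF4 targets, amino acid transporters, aminoacyl-tRNA synthetases and serine and one-carbon enzymes as 1 group, 10 were called above the sum and 0 below, against 0.389% and 0.495% of all genes. In all 10, both single-drug estimates were below DMSO, and DMSO was the highest group in 9, so here the combination stood less far below DMSO than the sum, not above it. The list medians were 0.19 for ATF4 targets (3 of 17 called), 0.17 for transporters (2 of 12), 0.22 for synthetases (4 of 19) and 0.07 for serine and one-carbon enzymes (1 of 11), against 0.01 over all genes. Joining these lists was not part of the plan. The list of endoplasmic reticulum chaperones, which was not joined to them, held 0 calls among 18 tested (median 0.24).

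CHAC1 (ENSG00000128965, chromosome 15, 40952962 to 40956519), an ATF4 target that degrades glutathione, had the largest interaction of these genes. CHAC1 had 5.25, 6.49, 5.42 and 6.20 CPM in the combination. It had 11.7, 9.06, 7.56 and 7.62 CPM with afatinib, 3.78, 3.52, 4.43 and 4.15 CPM with paclitaxel and 12.3, 13.4, 12.1 and 11.03 CPM in DMSO. Paclitaxel libraries were the lowest, with the combination above them and below every afatinib and DMSO library. The log2 differences from DMSO were −1.06 in the combination, −0.45 with afatinib and −1.63 with paclitaxel, and the interaction was 1.02 ± 0.17 (adjusted p = 0.00274), 0.99 within replicates 1 and 2 and 1.05 within replicates 3 and 4. The combination stood at 2.02 times the product of the single-drug folds.

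ASNS (ENSG00000070669, chromosome 7, 97852118 to 97872542), asparagine synthetase, showed the same kind of departure. ASNS had 59.6, 64.4, 84.6 and 80.01 CPM in the combination. It had 60.8, 55.4, 54.7 and 56.7 CPM with afatinib, 47.3, 64.03, 64.6 and 47.5 CPM with paclitaxel and 87.5, 87.5, 81.1 and 75.8 CPM in DMSO. In replicates 3 and 4 the combination reached the DMSO range and lay above all afatinib and paclitaxel libraries, while in replicates 1 and 2 it overlapped them. The interaction was 0.91 ± 0.16 (adjusted p = 0.0183), 0.73 within replicates 1 and 2 and 1.04 within replicates 3 and 4.

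SLC1A4 (ENSG00000115902, chromosome 2, 64988477 to 65023865) imports alanine, serine and cysteine. SLC1A4 had 8.12, 8.71, 17.3 and 22.3 CPM in the combination. It had 10.5, 9.04, 18.2 and 18.1 CPM with afatinib, 6.99, 7.24, 11.4 and 12.2 CPM with paclitaxel and 15.3, 11.3, 20.03 and 25.7 CPM in DMSO. All groups overlapped when both sets were pooled, and within each set the combination lay above paclitaxel. Its interaction was 0.90 ± 0.16 (adjusted p = 0.00773). The glycine transporter SLC6A9 was the exception in which the combination was the highest group, with 11.7 ± 2.89 CPM in the combination, 9.98 ± 2.03 with afatinib, 7.36 ± 1.33 with paclitaxel and 10.7 ± 2.18 in DMSO on average. Its interaction was 0.73 ± 0.14 (adjusted p = 0.0152), a call lost without paclitaxel replicate 4 (adjusted p = 0.0553).

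Of the synthetases 4 were called, for tryptophan (WARS, 0.41 ± 0.09), methionine (MARS, 0.41 ± 0.09), cysteine (CARS, 0.42 ± 0.10) and serine (SARS, 0.33 ± 0.08). WARS averaged 134 ± 3.30 CPM in the combination, 128 ± 15.3 with afatinib, 135 ± 13.4 with paclitaxel and 171 ± 23.9 in DMSO, and MARS averaged 226 ± 35.1 CPM in the combination, 211 ± 19.5 with afatinib, 222 ± 17.6 with paclitaxel and 277 ± 30.05 in DMSO. WARS libraries of the combination overlapped those of each single drug. These 4 calls, PSAT1 (0.40 ± 0.10) and the ATF4 target TRIB3 (0.40 ± 0.09) each depended on single libraries (adjusted p up to 0.149 in leave-outs), and without combination replicate 3 the synthetase list held 0 calls. With the replicate block the synthetase list held 7 calls above the sum and the ATF4 list 5. Over all genes that fit called 501 in both directions together, against 159 in the main fit. These list counts therefore cannot be set against the 0.389% of the main fit. PSAT1, a serine synthesis enzyme, had 105, 114, 115 and 109.9 CPM in the combination. It had 220.4, 205, 170.2 and 177 CPM with afatinib, 116, 102, 104 and 90.01 CPM with paclitaxel and 259, 255, 229 and 199.5 CPM in DMSO. Combination and paclitaxel libraries overlapped, and both lay below all others.

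The monocarboxylate transporter SLC16A1, on none of these lists and picked after its values were seen, had the third strongest call of all. SLC16A1 had 2.52, 2.42, 3.56 and 3.60 CPM in the combination. It had 1.66, 1.97, 2.25 and 2.05 CPM with afatinib, 1.55, 2.11, 2.12 and 2.07 CPM with paclitaxel and 3.45, 2.50, 3.998 and 3.88 CPM in DMSO. Afatinib and paclitaxel libraries lay below every combination and DMSO library. The log2 differences were −0.20 in the combination, −0.80 with afatinib and −0.80 with paclitaxel, with an interaction of 1.40 ± 0.19 (adjusted p = 0.000502).

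The promoter windows of ASNS (chr7:97872359-97872658, minus strand) and CHAC1 (chr15:40953221-40953520, plus strand), both GRCh38.p14 from RefSeq (for ASNS the window nearest to the GENCODE start), are shown for the element TGATGNAA, which ATF4 and C/EBP factors are known to bind. Capitals mark this element and CCAAT on either strand.
ASNS: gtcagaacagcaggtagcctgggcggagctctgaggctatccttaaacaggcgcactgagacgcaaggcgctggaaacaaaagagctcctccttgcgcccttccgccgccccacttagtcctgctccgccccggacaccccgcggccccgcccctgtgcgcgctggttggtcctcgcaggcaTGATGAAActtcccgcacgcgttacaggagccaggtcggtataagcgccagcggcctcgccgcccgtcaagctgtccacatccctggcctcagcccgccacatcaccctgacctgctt
CHAC1: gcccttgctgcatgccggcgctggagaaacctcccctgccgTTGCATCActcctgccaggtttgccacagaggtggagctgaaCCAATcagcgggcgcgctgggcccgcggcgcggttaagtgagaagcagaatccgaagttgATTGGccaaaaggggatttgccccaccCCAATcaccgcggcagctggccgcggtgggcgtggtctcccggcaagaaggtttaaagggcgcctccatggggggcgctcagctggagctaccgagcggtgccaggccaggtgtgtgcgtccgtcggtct
TGATGAAA lies 68 bases before the ASNS start, and TTGCATCA, its counterpart read on the other strand, 209 bases before the CHAC1 start. TRIB3, the other called ATF4 target, held no match in its windows. On the ATF4 list 5 of 17 genes held the element (29.4%), among synthetases 7 of 16 with a window (43.8%). It was found in 13 of 60 genes above the sum (21.7%) and 3 of 66 below it (4.55%), against 2.77% of tested genes and 3.62% of all windows.

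Below the sum, clustered histone genes had the lowest median of the 40 lists. Histones package DNA, and most of their mRNAs are made in S phase without a poly(A) tail, although some of these genes also give polyadenylated transcripts. Of 16 tested, 4 were called below the sum and 0 above, against 0.495% and 0.389% of all genes, and the median interaction was −0.56, against 0.01 over all genes. The list's median log2 difference from DMSO was 0.26 in the combination, −0.01 with afatinib and 0.95 with paclitaxel. Paclitaxel was the highest group in all 4 called members. Histone genes of the same family are alike in sequence, and the counting could split reads among them, so the value of any one of them is uncertain. Whether reads were split was not tested.

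The H2B gene HIST1H2BK (ENSG00000197903, chromosome 6, 27146418 to 27146798) had the smallest p of all genes. HIST1H2BK had 11.3, 12.6, 9.35 and 10.5 CPM in the combination. It had 8.13, 8.44, 6.20 and 6.25 CPM with afatinib, 21.2, 23.3, 20.8 and 17.4 CPM with paclitaxel and 6.77, 8.21, 6.35 and 5.10 CPM in DMSO. Paclitaxel libraries stood apart from all others, and the combination lay between them and DMSO. The product of the folds came to 22.6 CPM, and the combination stood at 0.481 times that, an interaction of −1.05 ± 0.13 (adjusted p = 0.000101), −1.06 within replicates 1 and 2 and −1.06 within replicates 3 and 4.

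HIST1H2AC (ENSG00000180573, chromosome 6, 26124145 to 26139116), a histone H2A gene, departed further. HIST1H2AC had 3.35, 4.08, 4.37 and 4.39 CPM in the combination. It had 3.54, 3.42, 2.02 and 2.36 CPM with afatinib, 9.20, 11.7, 11.1 and 9.07 CPM with paclitaxel and 2.29, 2.72, 1.53 and 2.62 CPM in DMSO. Here the combination overlapped afatinib and was above DMSO, and all lay below paclitaxel. The interaction was −1.66 ± 0.23 (adjusted p = 0.000994). HIST1H1C, a linker histone, averaged 6.34 ± 1.28 CPM in the combination, 7.92 ± 2.04 with afatinib, 14.9 ± 1.67 with paclitaxel and 7.91 ± 1.42 in DMSO, so its combination mean was the lowest of the 4. Its interaction was −1.24 ± 0.19 (adjusted p = 0.00274). HIST2H2BE averaged 2.50 ± 0.331 CPM in the combination, 1.25 ± 0.524 with afatinib, 8.65 ± 1.24 with paclitaxel and 1.63 ± 0.443 in DMSO (−1.40 ± 0.29, adjusted p = 0.028), and its call was lost without combination replicate 2 or 3, afatinib replicate 1 or 2, paclitaxel replicate 4 or DMSO replicate 4 (adjusted p up to 0.0705). Outside the list and chosen after its values were seen, HIST1H4I averaged 4.55 ± 0.502 CPM in the combination, 3.01 ± 0.514 with afatinib, 8.88 ± 1.01 with paclitaxel and 2.73 ± 0.795 in DMSO (−1.11 ± 0.17, adjusted p = 0.0018).

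Of 2 RefSeq windows of HIST1H2BK, the one nearest to the GENCODE start (chr6:27146806-27147105, minus strand, GRCh38.p14) is shown as that of the strongest call. Capitals mark CCAAT and the E2F sites described with E2F1, on either strand.
HIST1H2BK: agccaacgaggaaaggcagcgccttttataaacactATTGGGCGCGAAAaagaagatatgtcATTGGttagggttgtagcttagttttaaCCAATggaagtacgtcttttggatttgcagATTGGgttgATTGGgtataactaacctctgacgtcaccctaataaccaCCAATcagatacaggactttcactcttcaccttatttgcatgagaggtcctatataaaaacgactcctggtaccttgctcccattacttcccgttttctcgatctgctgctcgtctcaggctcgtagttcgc
It held 6 CCAAT boxes and, 209 bases before the start, the E2F string GCGCGAAA. CCAAT stood in 13 of 15 histone genes with a window (86.7%) and in all 4 called ones.

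TNFAIP3 (ENSG00000118503, chromosome 6, 137867188 to 137883312), which encodes the NF-kB feedback inhibitor A20, was also highest with paclitaxel. TNFAIP3 had 31.2, 31.5, 31.1 and 34.1 CPM in the combination. It had 30.7, 27.4, 28.3 and 30.8 CPM with afatinib, 47.6, 48.5, 52.9 and 56.3 CPM with paclitaxel and 35.1, 29.1, 30.5 and 31.4 CPM in DMSO. Paclitaxel libraries stood apart from all others, and DMSO overlapped both the combination and afatinib. The interaction was −0.57 ± 0.09 (adjusted p = 0.00274), −0.49 within replicates 1 and 2 and −0.68 within replicates 3 and 4. It was the 1 called gene of 25 tested on the NF-kB list (median −0.01), against 0.495% of all genes called below the sum. Picked after its values were seen, HAS2, a hyaluronan synthase, also had its highest level with paclitaxel, averaging 1.46 ± 0.622 CPM in the combination, 1.57 ± 0.476 with afatinib, 7.82 ± 1.66 with paclitaxel and 4.01 ± 0.487 in DMSO (−1.07 ± 0.19, adjusted p = 0.00614).

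SPRY2, an ERK-induced inhibitor of receptor tyrosine kinase signals, was the 1 call among 18 tested genes of the MAPK/ERK list (median −0.05). Among all genes, 0.495% were called below the sum. SPRY2 had 54.6, 50.4, 45.7 and 46.9 CPM in the combination. It had 61.8, 57.7, 52.7 and 52.2 CPM with afatinib, 67.5, 64.3, 61.3 and 57.9 CPM with paclitaxel and 60.7, 53.8, 46.4 and 44.2 CPM in DMSO. Paclitaxel libraries lay above every combination library, and within each set the combination lay below both single drugs. The interaction was −0.48 ± 0.08 (adjusted p = 0.00316).

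Some genes of cell cycle entry lay below the sum in another way, with the combination as the lowest group. E2F transcription factors drive the genes of DNA synthesis, and E-type cyclins act with them at the start of S phase. Of 22 tested E2F, pocket protein, cyclin and inhibitor genes, 3 were called below the sum and 0 above, against 0.495% and 0.389% of all genes. The list median was 0.04, against 0.01 over all genes. The same 3 were called whichever library was left out.

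CCNE2 (ENSG00000175305, chromosome 8, 94879770 to 94896678), cyclin E2, had the largest departure of the 3. CCNE2 had 6.55, 5.86, 8.30 and 9.36 CPM in the combination. It had 22.4, 25.1, 23.5 and 22.4 CPM with afatinib, 14.95, 16.6, 20.4 and 19.1 CPM with paclitaxel and 29.1, 29.4, 29.8 and 29.4 CPM in DMSO. The 4 groups did not overlap, with DMSO highest and the combination lowest. The log2 differences from DMSO were −1.98 in the combination, −0.33 with afatinib and −0.74 with paclitaxel. The product of the single-drug folds came to 14.01 CPM and the interaction was −0.91 ± 0.13 (adjusted p = 0.000994), −1.06 within replicates 1 and 2 and −0.79 within replicates 3 and 4.

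E2F1 (ENSG00000101412, chromosome 20, 33675683 to 33686404) had nearly no change with afatinib alone. E2F1 had 39.8, 36.5, 34.5 and 36.96 CPM in the combination. It had 110.2, 101, 99.4 and 97.1 CPM with afatinib, 59.4, 50.2, 54.4 and 57.9 CPM with paclitaxel and 114, 115, 95.4 and 98.7 CPM in DMSO. Afatinib and DMSO libraries overlapped, paclitaxel libraries lay below both, and combination libraries lay below paclitaxel. The log2 differences were −1.51 in the combination, −0.05 with afatinib and −0.93 with paclitaxel, and the interaction was −0.54 ± 0.09 (adjusted p = 0.00274). E2F2, a related factor, averaged 3.11 ± 0.258 CPM in the combination, 8.95 ± 0.508 with afatinib, 4.95 ± 0.428 with paclitaxel and 8.67 ± 0.701 in DMSO, likewise lowest in the combination (−0.71 ± 0.14, adjusted p = 0.012).

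UNG, the uracil-DNA glycosylase of base excision repair, is on neither cell cycle list. UNG had 19.8, 16.4, 16.2 and 16.5 CPM in the combination. It had 48.1, 43.7, 38.04 and 34.8 CPM with afatinib, 38.5, 29.4, 32.3 and 30.8 CPM with paclitaxel and 52.7, 55.03, 42.9 and 38.3 CPM in DMSO. Combination libraries were the lowest without overlap, and the interaction was −0.73 ± 0.12 (adjusted p = 0.00274). Of 38 tested DNA replication genes, 1 was called, below the sum, against 0.495% of all genes. The called gene was GINS2, a subunit of the replicative helicase. It averaged 16.1 ± 3.33 CPM in the combination, 31.9 ± 6.95 with afatinib, 23.2 ± 4.16 with paclitaxel and 33.7 ± 6.82 in DMSO (−0.45 ± 0.10, adjusted p = 0.0313), and lost its call without combination replicate 2 or 3, afatinib replicate 1, 2 or 3, paclitaxel replicate 1, 3 or 4, or DMSO replicate 4 (adjusted p up to 0.0954). The list's median interaction was −0.07, while its median log2 difference from DMSO was −0.58 in the combination, −0.10 with afatinib and −0.43 with paclitaxel. Of its 38 estimates 30 were negative, 10 of them with an unadjusted p under 0.05, while 0 of the positive ones had one. Among all 17991 genes tested, 8551 had a negative estimate, 1121 of them at that p.

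The scale mattered for part of the calls. When the departure was taken from the sum of the CPM differences in place of the product of folds, none of these 5 calls passed the threshold. The adjusted p was then 0.223 for CCNE2, 0.192 for E2F1, 0.108 for E2F2, 0.253 for UNG and 0.317 for GINS2 (limma on scaled CPM). On that scale KIF2C (0.000801), PLK1 (0.00231), CDC25B (0.003), HIST1H2BK (9.27e-06), HIST1H2AC (4.88e-05), TNFAIP3 (0.000801), CHAC1 (0.00942) and ASNS (0.0211) were still called, while SLC1A4 (0.0774) and CITED2 (0.107) were not. Of the 16 called mitosis genes 13 were called on that scale, and AURKA (0.212), CENPE (0.0821) and CDC20 (0.0678) were not. Over all genes the additive scale gave 121 calls, 91 of them among the 159.

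The promoter window of E2F1 (chr20:33686336-33686635, minus strand, GRCh38.p14, RefSeq) is shown because E2F factors are known to act on their own genes through sites such as TTTCGCGC, TTTGGCGC and TTTCCCGC. Capitals mark these and CCAAT on either strand.
E2F1: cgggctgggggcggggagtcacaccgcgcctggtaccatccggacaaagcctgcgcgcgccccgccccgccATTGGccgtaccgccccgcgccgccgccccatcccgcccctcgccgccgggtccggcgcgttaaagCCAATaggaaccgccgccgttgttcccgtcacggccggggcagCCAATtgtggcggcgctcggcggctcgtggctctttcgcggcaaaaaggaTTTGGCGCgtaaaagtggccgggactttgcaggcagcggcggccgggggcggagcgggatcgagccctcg
TTTGGCGC lies 20 bases before the start. At least 1 of the 3 strings was found in 18 of 33 DNA replication genes with a window (54.5%), in 3 of 60 genes above the sum (5.0%) and in 6 of 66 below it (9.09%). Among tested genes it was 5.33% and among all windows 2.74%.

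The list of FOXO and PI3K feedback genes held 5 calls below the sum and 0 above among 20 tested, against 0.495% and 0.389% of all genes. Its median was −0.21 (−0.31 within replicates 1 and 2, −0.15 within replicates 3 and 4), against 0.01 over all genes. On the additive scale the list held 1 call. FOXO factors enter the nucleus when PI3K signalling is low and raise growth-restraining and pro-apoptotic genes. CITED2, a transcriptional co-regulator, had 55.8, 43.9, 52.97 and 54.3 CPM in the combination. It had 93.7, 84.7, 76.8 and 75.4 CPM with afatinib, 93.4, 73.96, 88.3 and 85.3 CPM with paclitaxel and 104, 89.4, 74.97 and 76.2 CPM in DMSO. Combination libraries were the lowest without overlap, while each single drug overlapped DMSO (−0.66 ± 0.14, adjusted p = 0.03). BCL2L11, which encodes the pro-apoptotic protein BIM, averaged 11.5 ± 1.53 CPM in the combination, 14.6 ± 0.851 with afatinib, 16.3 ± 2.04 with paclitaxel and 14.3 ± 0.770 in DMSO (−0.52 ± 0.12, adjusted p = 0.036). BCL6, a transcriptional repressor, averaged 11.3 ± 1.37 CPM in the combination, 13.3 ± 1.23 with afatinib, 17.7 ± 3.19 with paclitaxel and 13.5 ± 1.22 in DMSO (−0.61 ± 0.13, adjusted p = 0.0313). IRS2, the insulin receptor adaptor, averaged 105 ± 22.7 CPM in the combination, 94.01 ± 6.82 with afatinib, 121 ± 20.3 with paclitaxel and 77.5 ± 5.71 in DMSO, so its level stayed above DMSO in the combination while lying below the sum (−0.49 ± 0.11, adjusted p = 0.0418). TRIB2 was the fifth call (−0.34 ± 0.08). None of the 5 held in all leave-outs, with an adjusted p of up to 0.14, and without afatinib replicate 1 the list held 0 calls. BMF, another BH3-only death gene, was called (−0.95 ± 0.23, adjusted p = 0.0476), which with BCL2L11 made 2 calls below among 29 tested BCL2 family, caspase and death receptor genes (median 0.02), against 0.495% of all genes. Neither of these calls held in all leave-outs (adjusted p up to 0.121). BMF had only 0.808 to 4.53 CPM over the libraries and was not called on the additive scale (adjusted p = 0.199, limma on scaled CPM).

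A further kind of departure came from genes whose mean was higher with each single drug than in DMSO and closer to DMSO in the combination. PITPNM3, a membrane-associated phosphatidylinositol transfer protein, averaged 17.1 ± 2.64 CPM in the combination, 22.3 ± 4.82 with afatinib, 18.3 ± 2.10 with paclitaxel and 14.9 ± 2.19 in DMSO. Its log2 differences were 0.20 in the combination, 0.58 with afatinib and 0.31 with paclitaxel, and its interaction was −0.68 ± 0.10 (adjusted p = 0.0018). PPAP2B, a lipid phosphate phosphatase, averaged 11.1 ± 3.55 CPM in the combination, 14.99 ± 4.25 with afatinib, 14.2 ± 4.27 with paclitaxel and 10.6 ± 2.71 in DMSO (−0.86 ± 0.14, adjusted p = 0.00274). WNT7B, a secreted Wnt ligand picked after its values were seen, had the second strongest call. WNT7B had 4.11, 4.67, 5.60 and 5.46 CPM in the combination. It had 6.52, 7.88, 8.55 and 6.98 CPM with afatinib, 7.08, 6.92, 9.08 and 7.998 CPM with paclitaxel and 3.34, 5.36, 3.89 and 4.72 CPM in DMSO. Combination and DMSO libraries overlapped, and both lay below every afatinib and paclitaxel library. The log2 differences were 0.19 in the combination, 0.79 with afatinib and 0.84 with paclitaxel, with an interaction of −1.44 ± 0.17 (adjusted p = 0.000101).

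In other genes the combination had the lowest mean of the 4 groups while neither single drug stood far below DMSO. FHDC1, a formin that binds actin and microtubules, averaged 5.81 ± 2.28 CPM in the combination, 9.53 ± 3.37 with afatinib, 9.46 ± 3.000 with paclitaxel and 8.64 ± 2.34 in DMSO (−0.83 ± 0.14, adjusted p = 0.00316). ARID5B, a DNA-binding protein, averaged 11.4 ± 1.91 CPM in the combination, 14.1 ± 0.744 with afatinib, 17.95 ± 2.19 with paclitaxel and 13.5 ± 1.23 in DMSO (−0.72 ± 0.12, adjusted p = 0.00446). The neurotrophin gene BDNF, picked after its values were seen, averaged 13.5 ± 2.30 CPM in the combination, 21.5 ± 1.53 with afatinib, 23.8 ± 2.97 with paclitaxel and 24.6 ± 1.32 in DMSO (−0.63 ± 0.11, adjusted p = 0.00316). The hypoxia-responsive gene NDRG1 differed from these, since DMSO was its lowest group. It was the 1 call of 30 tested glycolysis and hypoxia genes, against 0.495% of all genes called below the sum. NDRG1 averaged 40.7 ± 4.57 CPM in the combination, 44.2 ± 6.01 with afatinib, 47.9 ± 4.94 with paclitaxel and 36.8 ± 2.46 in DMSO, above DMSO in every treatment and less so in the combination (−0.49 ± 0.09, adjusted p = 0.00409). The calls of FHDC1, ARID5B, BDNF and NDRG1 held whichever library was left out.

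The largest departures by the naming rule also held genes outside these groups. Above the sum, GPX8, a peroxidase of the endoplasmic reticulum, averaged 171 ± 34.99 CPM in the combination, 138 ± 17.8 with afatinib, 128 ± 13.8 with paclitaxel and 145 ± 23.7 in DMSO (0.48 ± 0.09, adjusted p = 0.00614). ULBP2, a ligand of the NK cell receptor NKG2D and the 1 call of 15 tested NK ligand and immune surface genes, averaged 24.2 ± 8.44 CPM in the combination, 16.7 ± 5.12 with afatinib, 24.7 ± 7.19 with paclitaxel and 25.7 ± 7.97 in DMSO (0.59 ± 0.13, adjusted p = 0.03), a call lost without afatinib replicate 2 or 4, paclitaxel replicate 1 or 4, or DMSO replicate 4 (adjusted p up to 0.0725). Among all genes, 0.389% were called above the sum. SNCAIP (0.52 ± 0.12), PPM1E (0.49 ± 0.12), CHRNB1 (0.48 ± 0.12) and TMEM154 (0.48 ± 0.10) also lay above the sum. C5orf45 (−0.77 ± 0.16), MCIDAS (−0.76 ± 0.16), RSRP1 (−0.75 ± 0.17) and RP4-555D20.2 (−0.71 ± 0.14) lay below it. The calls of these 8 were lost in 5 or more of the 16 leave-outs. Below the sum, ID3 (−0.42 ± 0.10) was the 1 call of 20 tested TGF-beta genes. DANCR (−0.39 ± 0.09) was the 1 call of 16 tested snoRNA hosts and abundant long noncoding RNAs. Above it, the heat shock co-chaperone CHORDC1 (0.38 ± 0.09) was the 1 call of 16 tested cytosolic heat shock genes. The shares over all genes were 0.495% below and 0.389% above. The calls of ID3, DANCR and CHORDC1 likewise depended on single libraries.

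Some lists leaned to one side without calls. All 19 tested AP-1 and immediate-early genes had a negative interaction, 8 of them at an unadjusted p under 0.05, with a median of −0.26 and no call. JUNB, an AP-1 subunit, averaged 38.2 ± 3.14 CPM in the combination, 53.5 ± 6.69 with afatinib, 70.1 ± 7.83 with paclitaxel and 67.6 ± 7.90 in DMSO, with an interaction of −0.53 ± 0.13 (adjusted p = 0.0625). All 18 tested endoplasmic reticulum chaperones had a positive interaction, 9 at an unadjusted p under 0.05, with a median of 0.24 and no call, and HYOU1 averaged 589 ± 199 CPM in the combination, 541 ± 176 with afatinib, 547 ± 135 with paclitaxel and 679.6 ± 236 in DMSO (0.41 ± 0.11, adjusted p = 0.0733). The 13 mitochondrially encoded genes all had a negative estimate (median −0.28), 0 with an unadjusted p under 0.05. With the replicate block JUNB (adjusted p = 0.0231) and HYOU1 (adjusted p = 0.0209) were called. Members of a list share cells and libraries, so these counts are not independent. Of all 17991 genes tested, 9440 had a positive and 8551 a negative estimate, 1135 and 1121 of them at an unadjusted p under 0.05. The median was 0.05 among the 9718 genes with an average of at least 3 log2 CPM. It was −0.06 in the 4498 shortest genes and 0.04 in the 4498 longest, so part of a list's lean can go with level or length. In other lists without a call, the smallest p belonged to genes such as the EGFR ligand EREG (−0.38 ± 0.12, adjusted p = 0.156), the urokinase receptor PLAUR (0.43 ± 0.12, adjusted p = 0.081) and the p53 target SESN2 (0.44 ± 0.18, adjusted p = 0.279). With the replicate block these were called as well (adjusted p of 0.0467 for EREG, 0.00963 for PLAUR and 0.042 for SESN2).

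**Figure D5:**
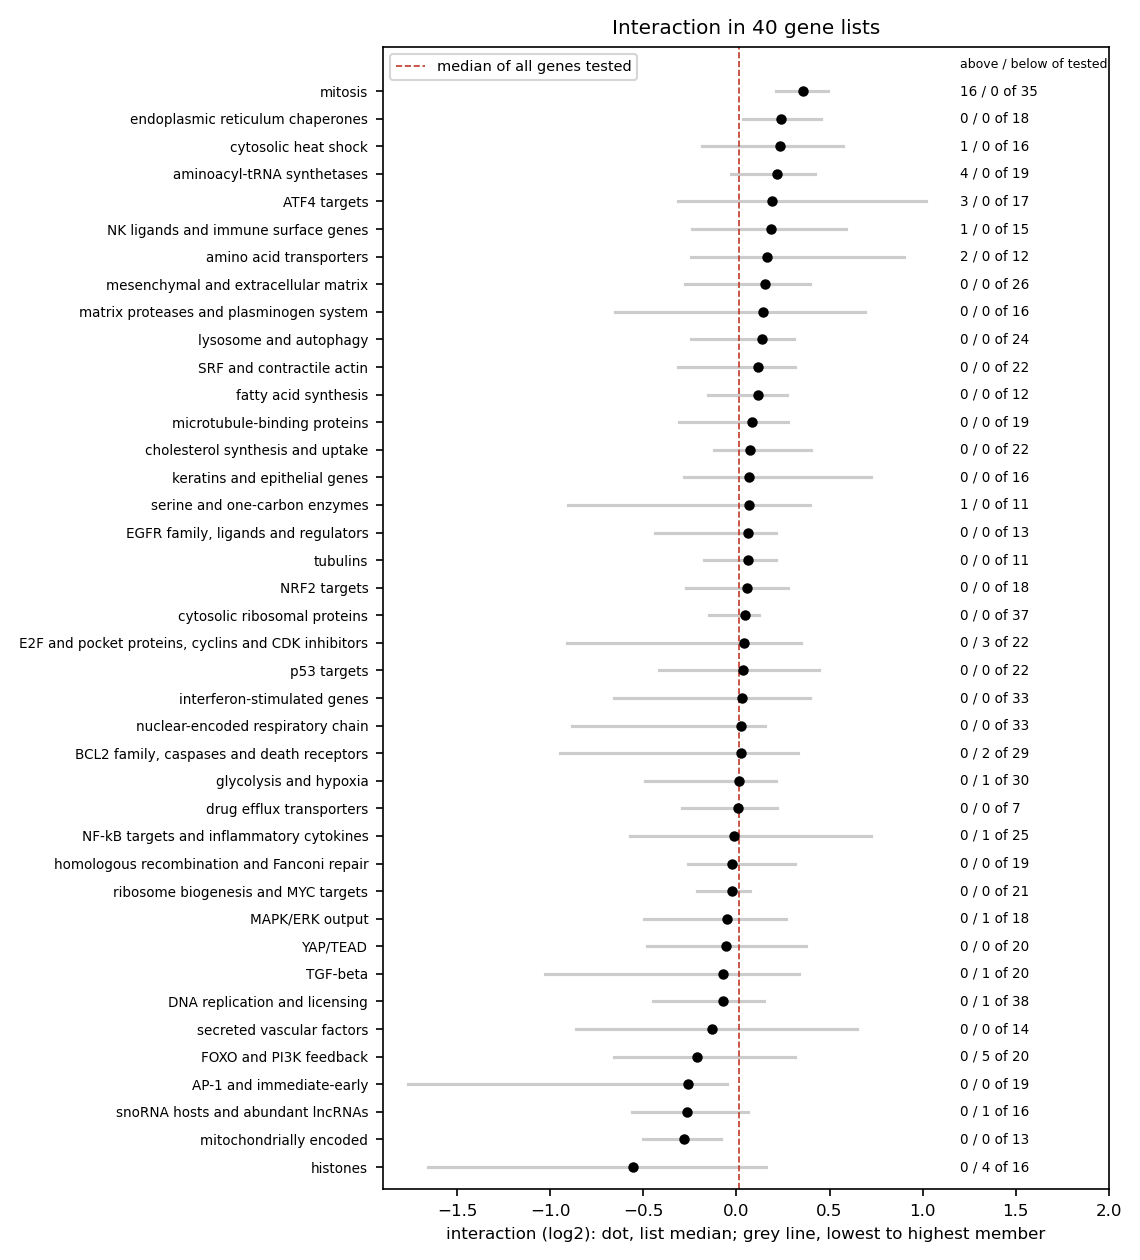
Median log2 interaction (black dot) and range from the lowest to the highest member (grey line) for 40 gene lists, with the median of all genes tested as a dashed line and, at right, the numbers called above and below the sum of those tested. The mitosis list stands highest, with a median of 0.36 and 16 of 35 called above, and the histone list lowest, with −0.56 and 4 of 16 called below.

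The drugs' own targets were not called. EGFR averaged 676 ± 294 CPM in the combination, 713 ± 244 with afatinib, 597 ± 189 with paclitaxel and 725 ± 279 in DMSO, with an interaction of 0.15 ± 0.12 (adjusted p = 0.645, 95% interval −0.11 to 0.41). Its level differed more between the replicate sets than between groups. ERBB2 averaged 73.6 ± 18.9 CPM in the combination, 70.9 ± 21.8 with afatinib, 70.8 ± 17.00 with paclitaxel and 74.3 ± 22.03 in DMSO (0.13 ± 0.10, adjusted p = 0.607), while ERBB4, with 1 to 6 counts in a library, fell under the filter. Among tubulins, TUBB averaged 17.2 ± 0.815 CPM in the combination, 28.1 ± 2.86 with afatinib, 20.9 ± 1.46 with paclitaxel and 33.3 ± 2.72 in DMSO, and its departure of −0.04 ± 0.10 (adjusted p = 0.915) was small beside its log2 differences from DMSO, −0.95 in the combination, −0.24 with afatinib and −0.67 with paclitaxel. TUBB reads are split among identifiers of alternative assemblies, which makes its level uncertain. TUBB4B averaged 739 ± 18.7 CPM in the combination, 733 ± 45.4 with afatinib, 775 ± 43.1 with paclitaxel and 852 ± 65.8 in DMSO (0.15 ± 0.08, adjusted p = 0.434), and TUBA1B (0.06 ± 0.09), TUBB6 (0.16 ± 0.08) and TUBB2A (0.15 ± 0.10) were not called either. A miss of the threshold does not show that the drugs' changes add exactly.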

How the data were processed

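RNA from 16 MDA-MB-231 libraries was sequenced. The authors deposited whole-number read counts per gene, for which the submitters' processing notes name STAR 2.7.5b, featureCounts of Subread 2.0.1 and hg38. The annotation, strand setting and filters are not given in the sources used here. The authors also deposited a log2 table whose name says that it is corrected for RNA concentration, used only as an alternative. Positions and gene types come from GENCODE v29, which held 36220 of the 37864 identifiers, and promoter windows from RefSeq.

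The deposited counts were scaled with TMM factors and filtered with filterByExpr (minimum count 10, minimum total 15). Group and set (replicates 1 and 2, replicates 3 and 4) were the terms of a quasi-likelihood model with robust dispersions, and F-tests came from edgeR 4.0.16 (R 4.3.3). The interaction was the combination minus afatinib minus paclitaxel plus DMSO, and calls needed p under 0.05 after Benjamini-Hochberg adjustment over all tested genes. Every adjusted p in the report is from this test unless another is named. SEs are absolute log2 values over the root of F. The fit was tested on simulated data with known interactions. CPM values use TMM-scaled library sizes, except the marker sums, which use plain library totals, and SDs of 4 libraries include the difference between sets.

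Members and gene lists were chosen with earlier results of these data known. Named are, by rule, the 12 called genes with the largest interaction in each direction with an average of at least 3 log2 CPM and 1 sign within both sets, then up to 3 called members of each list with the smallest p (or the member with the smallest p), and the drug targets. The further called members of the lists described in detail, and a few genes marked as such, were added after their values were seen. Libraries of the same replicate number in different groups deviated together from their group means (correlations of 0.37 to 0.70, median 0.59, 24 pairs). So did libraries of the same set with another number (0.38 to 0.67, median 0.50, 24 pairs). These values alone therefore do not show that the numbers pair the libraries beyond the sets. After the set means were removed the correlations were −0.12 to 0.13 for the same number (median 0.003) and −0.30 to −0.04 for another number of the set (median −0.18). The median was thus higher for the same number, and whether the numbers pair the libraries was not tested. Libraries of a group differed by a χ² of 6.62 to 336 per gene, so none was deposited as a copy. Alternatives were other scalings, filters, tools (DESeq2 1.42.0, limma 3.58.1), covariates, scales and sample sets, and leaving out each library.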

Additional observations from a re-analysis of the deposited data

Results flagged for a closer look

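Of 200 sets of 4 levels (50 genes in 4 groups), 4 held a library that lay far from the other 3 of its group, and chance gives such a gap in about 1 in 20 groups. HIST1H1C had 10.97 CPM in afatinib replicate 1, while the next highest afatinib library had 7.05 CPM. UNG had 19.8 CPM in combination replicate 1, with the nearest combination library at 16.5 CPM. TNFAIP3 had 34.1 CPM in combination replicate 4, with the nearest at 31.5 CPM. SLC16A1 had 1.55 CPM in paclitaxel replicate 1, below the nearest paclitaxel library at 2.07 CPM. The calls of these 4 genes were the same without each of these libraries.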

How the results depend on the processing

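The 159 called genes, 70 above and 89 below the sum, kept their sign under every alternative that gave them a value, while the number of calls moved widely. No filter gave 479 calls (283 above, 196 below), DESeq2 367 (200 and 167) and the replicate block, with replicate numbers in place of sets, 501 (about 2.3e+02 and 270). A stricter filter gave 38 above. Without a set term 0 genes were called in edgeR (0 above, 0 below, 643 at an unadjusted p under 0.05), and with a 1.5-fold departure as the null also 0 (0 above, 0 below, 208 at an unadjusted p under 0.05). Concentration in place of the set gave 26 calls (11 and 15), and added to the set 127 (60 and 67). Within replicates 1 and 2, 3 genes were called (0 and 3), and within replicates 3 and 4, 4 (1 and 3). The authors' log2 table gave 83 calls (28 below), and the additive scale 53 below. Leaving out 1 library gave 34 calls (without paclitaxel replicate 4) to 278 (without paclitaxel replicate 2), 14 to 147 above and 20 to 131 below. Uncalled values changed sign for EGFR within replicates 1 and 2 (−0.034), TUBB within replicates 3 and 4 (0.033), on the additive scale (0.059) and over leave-outs (−0.083 to 0.023), and TUBA1B with concentration in place of the set (−0.025) and in the authors' log2 table (−0.0398). The cause of these shifts was not tested. With 4 libraries a group the SE of the median gene was 0.13, and the smallest departure called was 0.33.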
